A study of Mus musculus with 28 samples.

Results

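Skin from the wound site on day 3 was compared with skin from day 0 to describe which genes, functions and cell type markers were higher or lower once wound inflammation had set in. The comparison took in 8 of the 28 libraries of the study, namely the 4 labelled day 3 and the 4 labelled day 0, and every gene of the count table. All mice carried both working copies of Mlkl (MLKL+/+), were of the C57BL/6J strain and were 8 weeks old, and the wounds healed without a drug. The back was shaved, a 6-mm punch took out the skin down to the fascia, and the whole wound site with scab and epithelial margins was sampled. The labels treat day 0 as the control, whereas the study's text names no day 0 and starts its 7 sampling days at day 1, its name for the day of injury. The other days match, and the text describes the tissue of all its days as wound site, which makes day 0 wound tissue of the day of injury if it is that day 1. The time between punch and sampling is not given in the sources used here. The labels do not say that replicates came from separate animals, so p-values measure only the spread between these libraries, which may be technical.

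An excised skin wound first fills with a clot, in which platelets and plasma proteins form a provisional matrix. Damaged cells and microbes are sensed by Toll-like receptors, C-type lectins and inflammasomes, and keratinocytes and macrophages then release interleukin 1, TNF and chemokines. CXC chemokines that bind CXCR2 draw neutrophils, and CC chemokines that bind CCR2 draw monocytes, which become the macrophages of the wound. Keratinocytes at the wound edge switch to stress keratins and move under the scab, and new matrix, vessels and contractile fibroblasts follow later.

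The libraries held between 36706513 and 40492661 counts on day 0 and between 38946853 and 39114643 on day 3. The libraries of day 3 lay close to each other, with a biological coefficient of variation of 6.21%, against 24.3% on day 0. A first principal component with 81.5% of the variance parted the days, and the second (8.52%) parted day 0 replicates 1 and 4 from day 0 replicates 2 and 3. In both of the former, 253 genes were more than 2-fold above and 354 more than 2-fold below both of the latter. What set these libraries apart was not tested, and calls and log2 fold changes that rest on them are given with and without them for the genes and lists that turn on them most. A log2 fold change without a library is from the same fit with that library left out. Pairs were left out after this split was seen, so the day 0 libraries kept were alike by that choice. Calls and adjusted p-values of those fits understate the spread of day 0. They describe how a result depends on the pair and are not tests. Xist, which females express, had at most 4 counts in each library, and the Y-linked Ddx3y had between 2535 and 3369, although the study's methods name mice of both sexes.

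Of 16603 genes with enough counts for the test, 4877 (29.4%) rose and 5562 (33.5%) fell on day 3 at an adjusted p below 0.05 (edgeR, quasi-likelihood, Benjamini-Hochberg). Rise and fall are used in this sense throughout. Past the fold limit of the study, a log2 fold change of 1.5 (2.83-fold) in either direction, 990 genes (5.96%) were higher and 1815 (10.9%) lower. Whether called or not, 28.7% of the genes tested had the 4 libraries of day 3 all above the 4 of day 0, and 31.0% had them all below. The shares of 29.4% and 33.5% are the background for the list counts that follow. Without day 0 replicates 1 and 4, 6074 genes rose and 6129 fell, and 933 of the 990 and 1607 of the 1815 genes were again past the limit. Among the 7 days of the study, day 3 had the highest mean for 791 of the 990 genes and the lowest mean for 1284 of the 1815, a description of the same libraries and not a further test.

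**Figure D1:**
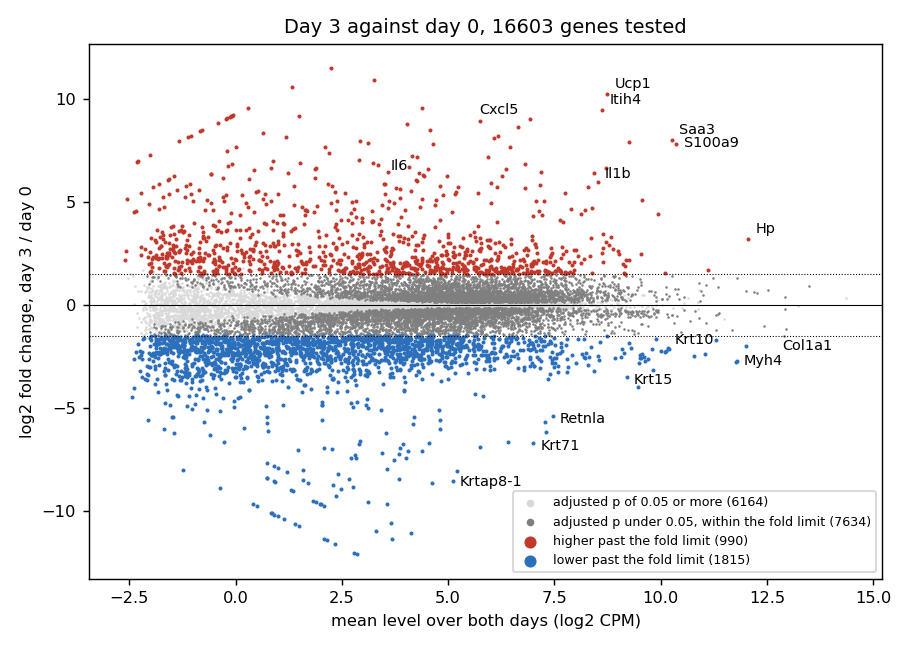
Each point is 1 of the 16603 genes tested, placed by its mean level over both days (horizontal axis, log2 of the counts per 1e6, CPM) and its log2 fold change of day 3 over day 0 (vertical axis), with the fold limit of 1.5 as dotted lines. The 990 red genes were higher and the 1815 blue genes lower past the limit, with Ucp1 and Itih4 among the highest and the keratin-associated gene Krtap8-1 among the lowest of the genes named in the plot.

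The largest increases among genes of at least 10 CPM were those of neutrophil attraction and sensing (Cxcl5, Cxcl3, Trem1, S100a8), of the cornified envelope (Sprr2b, Sprr2d, Sprr2e, Sprr2f and Sprr2i), of the acute phase (Saa3 and Itih4), and of Ucp1, the uncoupling protein of brown fat, Acod1, the itaconate-forming enzyme of activated macrophages, Fgf23, a phosphate hormone, and the unnamed Gm41235. Among the 15 largest decreases, 12 were genes of keratin-associated proteins (Krtap), which fill the hair shaft, and 1 was the inner root sheath keratin Krt26. Sprr2 and Krtap genes are families of near-identical copies that may share reads, and the value of any single copy is uncertain. Sprr2b had 0 to 1 counts per library on day 0 and 707 to 754 on day 3. Krtap6-5, Krtap6-1 and Krtap4-2 had no count on day 3, which makes them at least 186-fold, 178-fold and 131-fold lower (against 3 counts per library), or at least 98.5-fold, 72.6-fold and 85.1-fold without day 0 replicate 1.

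The windows below show sequence upstream of 4 inflammatory genes that rose past the limit, 3 of them chemokines of 1 cluster on chromosome 5, each with a short stretch of letters that NF-kB or AP-1, transcription factors of the inflammatory response, is known to bind. They are RefSeq sequences of GRCm38.p6, printed 5′ to 3′ on the plus strand, on which all 4 genes lie. Capitals mark matches to the NF-kB letters GGGANNTTC (N is any base) or the AP-1 letters TGACTCA, searched on both strands. In the 3 chemokine genes, the capitals are 2 overlapping NF-kB matches, 1 on each strand. The windows are chr5:90891149-90891209 for Cxcl1, chr5:90903777-90903837 for Cxcl2, chr5:90786003-90786063 for Cxcl3 and chr5:30012864-30013103 for Il6, where the first stretch in capitals is the AP-1 match and the second the NF-kB match.
Cxcl1: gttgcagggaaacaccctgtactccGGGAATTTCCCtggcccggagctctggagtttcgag
Cxcl2: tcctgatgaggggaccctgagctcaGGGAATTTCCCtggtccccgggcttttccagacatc
Cxcl3: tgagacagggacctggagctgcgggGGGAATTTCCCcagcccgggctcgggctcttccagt
Il6: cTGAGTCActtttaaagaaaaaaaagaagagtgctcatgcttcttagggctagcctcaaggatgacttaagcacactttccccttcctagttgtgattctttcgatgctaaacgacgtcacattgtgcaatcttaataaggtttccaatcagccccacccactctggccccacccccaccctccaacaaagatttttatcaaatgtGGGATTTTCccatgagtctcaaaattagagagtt

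The NF-kB letters were found in 3.94% and the AP-1 letters in 5.20% of all 32851 promoters in the RefSeq table, each running from 250 bases before to 50 bases after a gene's start. For the genes tested, the shares were 3.77% and 4.45% of 16573 promoters. Counted by gene, as for the cytokine genes below, they were 4.48% and 5.31% of 13021 genes. Of the 990 genes higher past the limit, 757 were in the table, and 5.75% of their 921 promoters held the NF-kB letters and 9.99% the AP-1 letters. For the 1370 of 1815 lower genes in the table, the shares were 3.19% and 6.27% of 1723 promoters. Among the cytokine and chemokine genes of the lists, 29 were higher past the limit and 21 of these were in the table. The NF-kB letters stood in the promoters of 6 of them, upstream of the start in Cxcl1, Cxcl2, Cxcl3, Il6 and Il1f9 and after it in Tnf. The AP-1 letters stood in 5, those of Il6, Il11, Il1a, Il1rn and Lif. The C/EBP letters TTGCGCAA (0.18% of all promoters) and the cAMP response letters TGACGTCA (1.79%) were in none of the 21. Among all 41 cytokine and chemokine genes of the lists in the table, whether they rose or not, 9 (21.95%) held the NF-kB letters and 9 the AP-1 letters, beside 28.57% and 23.81% of the 21 that rose past the limit. A match describes the letters of this window and not binding.

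The cytokine genes rose almost as a group. Of 24 tested, 20 rose, 16 of them past the limit, and 1 fell, with a median log2 fold change of 2.58 beside -0.036 over all genes tested. Il1b, which encodes the interleukin 1β that inflammasomes activate, was at 12.6, 8.05, 7.42 and 17.9 CPM in day 0 replicates 1 to 4 and at 671, 694, 727 and 805 CPM in day 3 replicates 1 to 4. The days did not overlap, and the increase was 63.1-fold (log2 fold change 5.98, standard error 0.30, adjusted p = 6.07e-07). Il6, which signals through STAT3, was at 1.26, 0.520, 0.127 and 0.187 CPM on day 0 and at 43.3, 42.3, 38.1 and 44.6 CPM on day 3, again without overlap. Its log2 fold change was 6.31 (standard error 0.46, adjusted p = 4.26e-06), or 7.23 without day 0 replicate 1. Tnf was low on both days, at 1.71, 1.63, 1.67 and 2.70 CPM and then 14.2, 16.1, 15.9 and 18.9 CPM, with every library of day 3 above those of day 0, and rose 8.43-fold (adjusted p = 1.45e-06).

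Csf3, the growth factor of neutrophils, had 2 to 6 counts per library on day 0 and was at 15.2, 15.2, 14.8 and 14.2 CPM on day 3 (log2 fold change 7.06). Osm, an interleukin 6 relative made by neutrophils and macrophages, rose from 0.552 ± 0.156 to 37.3 ± 5.56 CPM (mean ± SD, n = 4 libraries each day, as below). Il24, which acts on keratinocytes, had 0 to 10 counts per library on day 0, nearly all in replicate 1, and 251 to 314 on day 3. Il33, an alarmin of epithelial cells, was at 34.0, 53.5, 49.5 and 36.1 CPM and rose 6.93-fold to 316, 298, 286 and 299.5 CPM. Il1a rose 4.33-fold and Il1rn, the natural antagonist of the interleukin 1 receptor, 6.31-fold. Tslp was the 1 cytokine gene that fell (log2 fold change -1.03), its days overlapped, and with 1 library left out its adjusted p ran from 0.00876 to 0.109, past 0.05 without any library but day 0 replicate 1 or 4. Il10, the main anti-inflammatory cytokine, was at 1.13 ± 0.492 and 1.59 ± 0.245 CPM and did not pass the test (adjusted p = 0.184, or 0.0307 without day 0 replicates 1 and 4, and under 0.05 without replicate 1 alone).

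Of 24 cytokine receptor genes, 17 rose and 4 fell. Csf3r, the receptor for Csf3, rose from 14.5, 6.12, 8.31 and 6.87 CPM to 292, 304, 280.0 and 301 CPM, a log2 fold change of 5.04 without overlap. Il18rap (3.38), Il4ra (3.25) and Csf2rb (2.55), chains of the receptors for interleukin 18, interleukin 4 and GM-CSF, followed. The largest decreases were those of Il20rb (-1.70), Il20ra (-1.53) and Il22ra1 (-1.21), epithelial receptor chains for the interleukin 20 and 22 families. Il20ra was at -0.76 and Il18rap at 4.30 without day 0 replicates 1 and 4. Il1r2, the decoy receptor of interleukin 1, was at 87.0, 173, 169 and 55.2 CPM and 149.7, 153, 152 and 171 CPM and did not pass the test, though it was higher without day 0 replicates 2 and 3 (log2 fold change 1.14).

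All 12 genes of neutrophil chemoattraction rose, 11 past the limit, with a median log2 fold change of 6.28, or 6.16 with Cxcr1 at its bound. The median was 7.30 without day 0 replicates 1 and 4 and 5.83 without replicates 2 and 3. Cxcl5 was at 1.43, 0.0991, 0.177 and 0.134 CPM on day 0 and at 241, 247, 241 and 247 CPM on day 3 (log2 fold change 9.03, standard error 0.56, adjusted p = 1.76e-06). Day 0 replicate 1 held most of the few counts of day 0, and the log2 fold change was 10.79 without it. Cxcl3 had 0 to 16 counts per library on day 0 and reached 107 ± 16.2 CPM (log2 fold change 8.97), and its counts on day 0 were nearly all in replicates 1 and 4. Cxcl1 rose from 1.03, 0.693, 0.684 and 0.775 CPM to 62.7, 58.3, 61.2 and 67.1 CPM (log2 fold change 6.29), with the libraries of each day close together. For Cxcl2, day 0 replicates 1 and 4 (3.27 and 9.19 CPM) stood above replicates 2 and 3 (0.594 and 0.177 CPM), and day 3 was at 255, 269, 273 and 363 CPM (log2 fold change 6.46, or 7.76 without replicate 4 and 9.57 without replicates 1 and 4). Cxcr2, the receptor of these chemokines, rose 209-fold from 0.834 ± 0.340 to 175 ± 6.42 CPM. Cxcr1 had no count on day 0 and 145 to 228 counts per library on day 3, at least 65.9-fold higher.

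**Figure D2:**
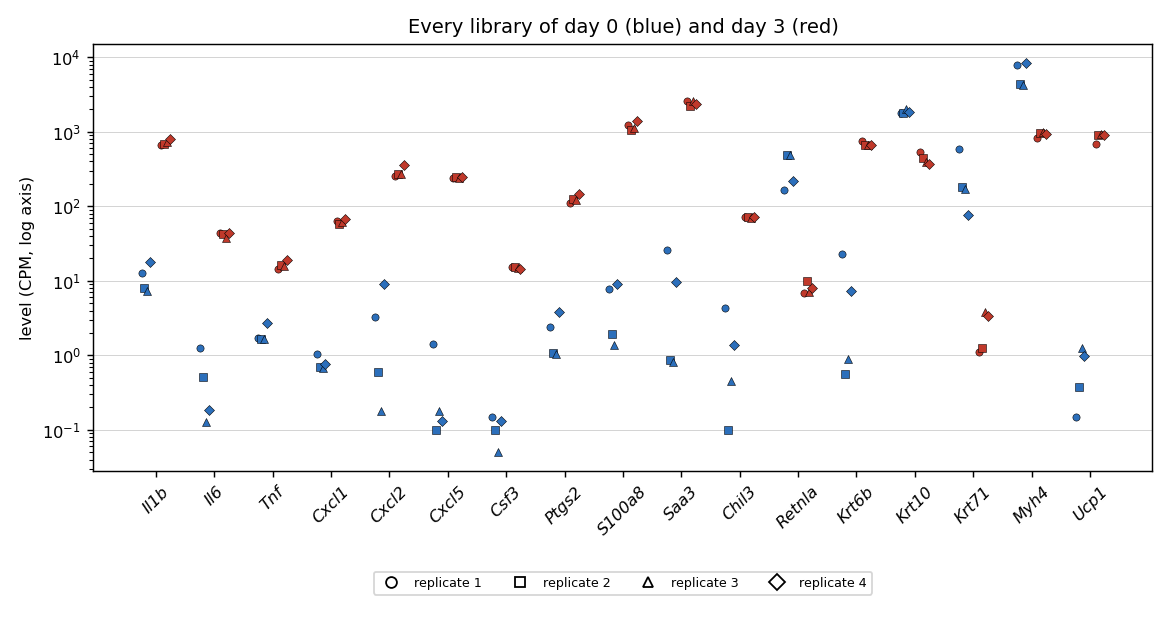
Levels of 17 genes in each of the 8 libraries (vertical axis, CPM on a log axis), with day 0 in blue, day 3 in red and 1 marker shape for each replicate number. The libraries of day 3 lie close together, day 0 replicates 1 and 4 lie above replicates 2 and 3 for Cxcl2, S100a8, Saa3, Krt6b and Myh4, and no gene shown has a library of day 3 within the range of day 0.

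Of 16 monocyte chemokine and receptor genes, 11 rose, 10 past the limit, and 1 fell (3 without day 0 replicates 1 and 4). Ccl3 and Ccl4, the macrophage inflammatory proteins, rose by 5.13 and 5.15 on the log2 scale, and their receptor gene Ccr1 by 4.33. The rises of Ccl3 and Ccl4 were 5.84 and 5.90 without day 0 replicate 4 and 7.31 and 8.33 without replicates 1 and 4. Ccl2, the main ligand of CCR2, was at 20.3, 5.57, 5.98 and 10.1 CPM on day 0 and at 92.4, 87.9, 86.2 and 96.3 CPM on day 3, an 8.65-fold increase without overlap (log2 fold change 3.11, or 4.01 without replicates 1 and 4). Ccl24, an eosinophil attractant, fell by 2.38, but by less without day 0 replicates 2 and 3 (log2 fold change -1.18). Of 19 genes that guide lymphocytes and dendritic cells, 11 rose, 3 past the limit, and 4 fell. Cxcr4 (2.36) and Ccr7 (2.05) rose most, and the skin homing chemokine Ccl27a fell by 2.47.

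All 14 genes of leukocyte adhesion that were tested rose, 7 past the limit. The endothelial selectins Selp and Sele rose 6.20-fold and 2.74-fold. Of 28 genes of pattern recognition, 26 rose, 14 past the limit, and 0 fell. Trem1, which amplifies Toll-like receptor signals in myeloid cells, was at 1.08, 0.0495, 0.177 and 0.641 CPM and then 123, 127, 135 and 154 CPM (log2 fold change 8.11, or 8.90 without day 0 replicate 1 and 10.21 without replicates 1 and 4). The C-type lectins Clec4e and Clec4d rose by 6.62 and 5.86 (8.79 and 8.44 without replicates 1 and 4, and 7.32 for Clec4e without replicate 1), and Nlrp3, an inflammasome sensor, by 5.40, from 1.66 ± 0.345 to 69.9 ± 6.21 CPM. The other parts of that inflammasome did not pass the test, the adaptor Pycard at 43.2 and 42.6 CPM and Casp1 at 34.8 and 27.1 CPM, though Casp1 was lower without day 0 replicate 4 alone (log2 fold change -0.51, adjusted p = 0.0126) and without replicates 1 and 4 (-0.68).

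Of 29 genes of the NF-kB, AP-1 and STAT3 response, 25 rose and 2 fell, with a median log2 fold change of 1.13. Socs3, the feedback inhibitor of STAT3, rose 7.14-fold, the AP-1 subunit Fosl1 by 2.80 on the log2 scale (4.37 without day 0 replicates 1 and 4) and the IκB relative Bcl3 by 2.41. The NF-kB subunit genes Nfkb1, Nfkb2 and Rel rose by 0.47, 1.11 and 0.44, and Klf4 and Jund fell by 1.08 and 0.79. Of 24 interferon-stimulated genes, 18 rose, 6 past the limit, and 0 fell. Without day 0 replicates 1 and 4, 22 rose, and without replicates 2 and 3 instead, 18 rose, 3 of them past the limit, and 3 fell. Isg15 was at 24.9, 9.04, 7.93 and 17.4 CPM on day 0 and 45.4, 50.2, 49.4 and 53.8 CPM on day 3 (log2 fold change 1.75, or 2.58 without replicates 1 and 4), and its day 0 level was higher in replicates 1 and 4.

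Antimicrobial and acute phase genes rose in 23 of 28 cases, 21 past the limit, and fell in 2. S100a8 and S100a9, the chains of calprotectin, rose 242-fold and 232-fold, from 5.01 ± 3.93 and 11.4 ± 7.21 CPM to 1209.5 ± 148 and 2635 ± 348 CPM. Both were higher in day 0 replicates 1 and 4, and their log2 fold changes of 7.92 and 7.86 were 9.55 and 8.98 without these. Per length, their day 3 levels were 3050.5 and 4970.4 FPKM, beside 5665 FPKM for haptoglobin (Hp). Saa3, a serum amyloid made in tissue, was at 25.8, 0.867, 0.811 and 9.52 CPM on day 0 and at 2619, 2238, 2560.1 and 2379 CPM on day 3 (log2 fold change 8.05, standard error 1.14, adjusted p = 2.57e-04). Its day 0 level was more than 10-fold higher in replicates 1 and 4 than in replicates 2 and 3, and the log2 fold change was 9.38 without replicate 1 and 11.54 without replicates 1 and 4. Lcn2, which withholds iron from bacteria, rose 103-fold from 10.5, 8.77, 7.50 and 5.43 CPM to 818, 814, 843 and 842 CPM and showed no such split. Reg3g, an antimicrobial lectin, had no count on day 0 and was at least 22.9-fold higher. Lyz1, a lysozyme gene near-identical to Lyz2, and the beta defensin Defb6 fell by 2.34 and 1.86 on the log2 scale.

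Of 20 complement genes, 8 rose and 5 fell (40% and 25%, beside 29.4% and 33.5% of all genes tested). Clu, a complement inhibitor and chaperone, rose by 2.55, factor B (Cfb) by 2.40 and the first component genes C1qa, C1qb and C1qc by 0.59, 0.94 and 0.60 on the log2 scale, while C7 fell by 3.25 (log2 fold change -1.41 without day 0 replicates 2 and 3). Without day 0 replicates 1 and 4, 9 complement genes rose and 10 fell, and without replicates 2 and 3 instead, 15 rose and 5 fell. Of 23 genes of prostaglandin and leukotriene synthesis, 12 rose and 6 fell. Ptgs2, the inducible cyclooxygenase, was at 2.39, 1.06, 1.04 and 3.80 CPM on day 0 and at 112, 125, 123 and 147 CPM on day 3, a 61.5-fold increase without overlap (adjusted p = 1.74e-06). Its log2 fold change of 5.94 was 6.94 without day 0 replicates 1 and 4. The constitutive Ptgs1 fell by 0.90 on the log2 scale, the prostaglandin-degrading Hpgd by 1.96 and the receptor Ptger3 by 2.86, while the receptor Ptger2 rose by 1.98. Hpgd was at -0.69 without day 0 replicates 2 and 3 and Ptger2 at 2.87 without replicates 1 and 4.

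**Figure D3:**
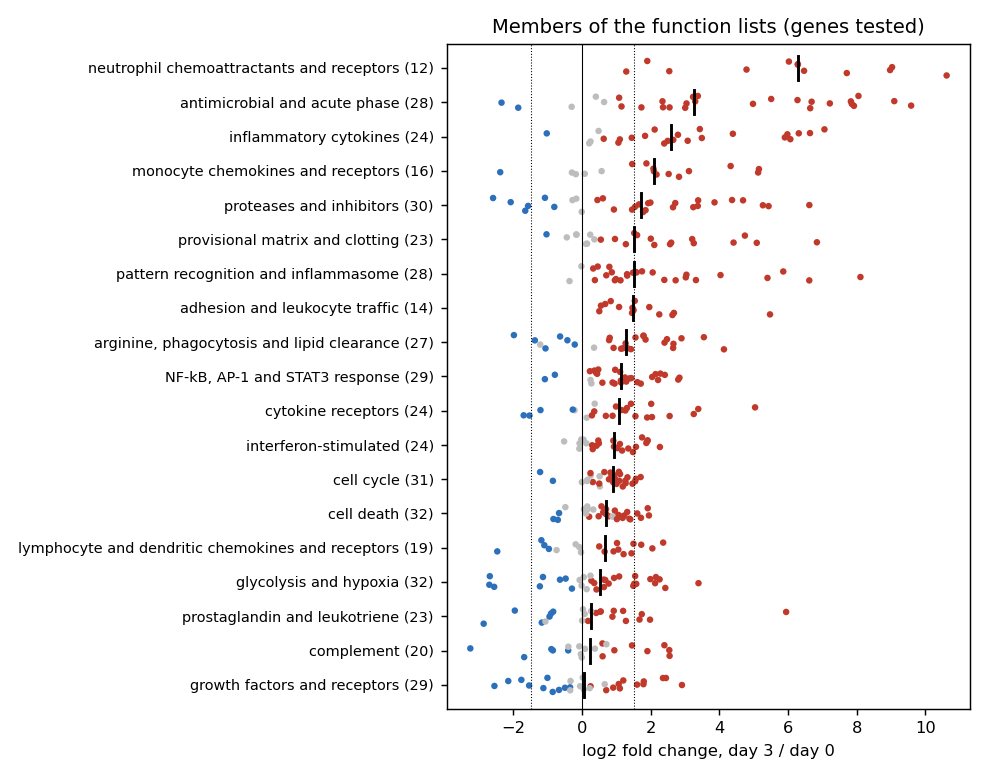
Log2 fold change of day 3 over day 0 (horizontal axis) for each gene tested in the lists by function, with the number tested in brackets and the median as a black bar. Red genes rose, blue genes fell, grey genes did not pass the test and dotted lines mark the fold limit, and the median runs from 0.05 for growth factors to 6.28 for neutrophil chemoattractants.

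Proteases and their inhibitors changed in both directions, with 21 of 30 rising, 17 past the limit, and 6 falling, and 2 in place of 4 fell past the limit without day 0 replicate 2 or 3. The neutrophil collagenase Mmp8 rose by 6.62 on the log2 scale (7.23 without day 0 replicate 1). Timp1, an inhibitor of matrix metalloproteases, rose 43.1-fold from 19.6, 5.03, 4.91 and 9.60 CPM to 418, 416, 401 and 453 CPM (log2 fold change 5.43, or 6.04 without day 0 replicate 1). Its relatives fell, Timp3 by 2.59, Timp4 by 2.08 and Timp2 by 1.65, with Timp4 at -1.19 without replicates 1 and 4 and Timp2 at -0.93 without replicates 2 and 3. Mmp9, the gelatinase of neutrophils and keratinocytes, was at 20.6, 62.8, 60.4 and 17.5 CPM on day 0, lower in replicates 1 and 4, and at 136, 143, 138 and 137 CPM on day 3 (3.43-fold higher, without overlap). Its log2 fold change of 1.78 was 2.87 without replicates 2 and 3.

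Of 23 genes of the provisional matrix and clotting, 15 rose, 12 past the limit, and 1 fell. The number that fell was 0 with the replicate block and with any 1 library left out but day 0 replicate 1 or 4, and 3 without both of these. Ptx3, a pentraxin that binds microbes and matrix, rose 114-fold from 1.93 ± 0.272 to 222 ± 16.2 CPM. Tenascin C (Tnc) was at 105, 10.9, 10.2 and 45.8 CPM and then 1544, 1415, 1488 and 1404 CPM (log2 fold change 5.09, or 6.05 without day 0 replicate 1 and 7.15 without replicates 1 and 4), with day 0 replicates 1 and 4 above the other two. Osteopontin (Spp1) and thrombospondin 1 (Thbs1) rose by 4.74 and 4.41, or 6.19 and 5.18 without replicates 1 and 4. Fibronectin (Fn1), which is also a plasma protein, was at 548, 1252, 1208 and 375 CPM and 715, 792, 738 and 781 CPM and did not pass the test. It was called lower without day 0 replicates 1 and 4 (log2 fold change -0.67) and higher without replicates 2 and 3 (0.72).

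Among 29 growth factor and receptor genes, 12 rose and 10 fell (41.4% and 34.5%), a falling share near the 33.5% of all genes tested, with a median log2 fold change of 0.05. The activin chain Inhba rose by 2.91, and Areg and Epgn, ligands of the EGF receptor, by 2.44 and 2.36 on the log2 scale. Egf, another ligand of that receptor, was at 13.4, 10.6, 11.1 and 21.3 CPM and then 2.05, 1.42, 3.32 and 2.83 CPM, 5.86-fold lower without overlap. Vegfa, the main growth factor of vessels, rose 2.10-fold, Tgfb2 fell by 2.15, and the oestrogen receptor gene Esr1 fell by 0.67 on the log2 scale.

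Cell death genes rose in 22 of 32 cases, 4 past the limit, and fell in 3. Mlkl, the executor of necroptosis, was at 14.2, 9.68, 11.2 and 12.1 CPM on day 0 and at 27.2, 25.5, 28.5 and 29.3 CPM on day 3. The days did not overlap, and the 2.35-fold increase (log2 fold change 1.23, standard error 0.11, adjusted p = 1.82e-05) stayed under the fold limit. Ripk3, the kinase that activates it, rose 3.86-fold from 13.6, 7.78, 6.79 and 9.49 CPM to 38.3, 34.9, 36.0 and 35.8 CPM. Ripk1, which acts upstream of Ripk3, rose by 0.70 on the log2 scale. The death receptor Tnfrsf10b (1.91), the BH3-only gene Bcl2l11 (1.72) and the gasdermin Gsdme (1.61) were the other genes past the limit. Bcl2, which opposes apoptosis, fell by 0.71. Trp53 was at 52.4 ± 2.02 and 58.3 ± 4.09 CPM and did not pass the test (adjusted p = 0.0551, or 0.0256 without day 0 replicates 1 and 4, and under 0.05 without day 0 replicate 1 or day 3 replicate 2 alone).

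Genes of arginine use, phagocytosis and lipid clearance rose in 19 of 27 cases and fell in 6. The scavenger receptors Msr1 and Olr1 rose by 2.90 and 2.66 on the log2 scale, and Gpnmb, a lysosomal glycoprotein of macrophages and pigment cells, fell by 1.06. Of 32 genes of glycolysis and hypoxia, 19 rose and 8 fell. The glucose transporter Slc2a3 rose 10.5-fold, the lactate exporter Slc16a3 by 2.42 on the log2 scale and Hk3, a hexokinase of myeloid cells, 4.78-fold. The muscle forms Pgam2, Pfkm and Eno3 fell by 2.70, 2.69 and 2.56. Gapdh, which has near-identical pseudogenes, was at 131 ± 25.0 and 136 ± 7.09 CPM and did not pass the test, and was called higher without day 0 replicates 1 and 4 (log2 fold change 0.34) and lower without replicates 2 and 3 (-0.16).

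Of 31 cell cycle genes, 23 rose, 3 past the limit (the mitotic kinases Bub1, Cdk1 and Plk1), and 2 fell, the D cyclins Ccnd1 and Ccnd2. The number past the limit was 5 without day 0 replicate 1 or 4, 0 without replicate 2 and 1 without replicate 3. It was 15 without replicates 1 and 4 and 0 without replicates 2 and 3. Mki67, a marker of dividing cells, rose 1.82-fold to 137, 132, 139 and 134 CPM, from 103 and 90.7 CPM in day 0 replicates 1 and 4 and 53.0 and 51.7 CPM in replicates 2 and 3. The meiotic gene Sycp2 had 0 to 6 counts per library on day 0 and rose to 3.90 ± 0.593 CPM.

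The marker lists describe the cells whose RNA the tissue held. In bulk tissue, fewer cells of a type and less RNA per cell cannot be told apart. Markers of neutrophils rose in 15 of 19 cases, all past the limit, and 1 fell. Ly6g, the defining surface protein, had no count on day 0 and 339 to 399 counts per library on day 3, at least 123-fold higher. Retnlg was at 0.755, 1.29, 0.988 and 0.267 CPM and then 115, 115, 124 and 138 CPM (147-fold, without overlap, and a log2 fold change of 7.20, or 7.89 without day 0 replicates 2 and 3). The primary granule genes Mpo, Prtn3 and Elane, picked from this list after their values were seen, were not called higher in the fit of all 8 libraries. They do not stand for the other granule genes of the list, where 15 of 19 markers rose. Mpo had too few counts for the test, Prtn3 was at 5.54 and 5.89 CPM (adjusted p = 0.765, or 0.0472 and a log2 fold change of 0.42 without day 0 replicates 1 and 4), and Elane, low on both days, fell from 0.420 to 0.0646 CPM.

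**Figure D4:**
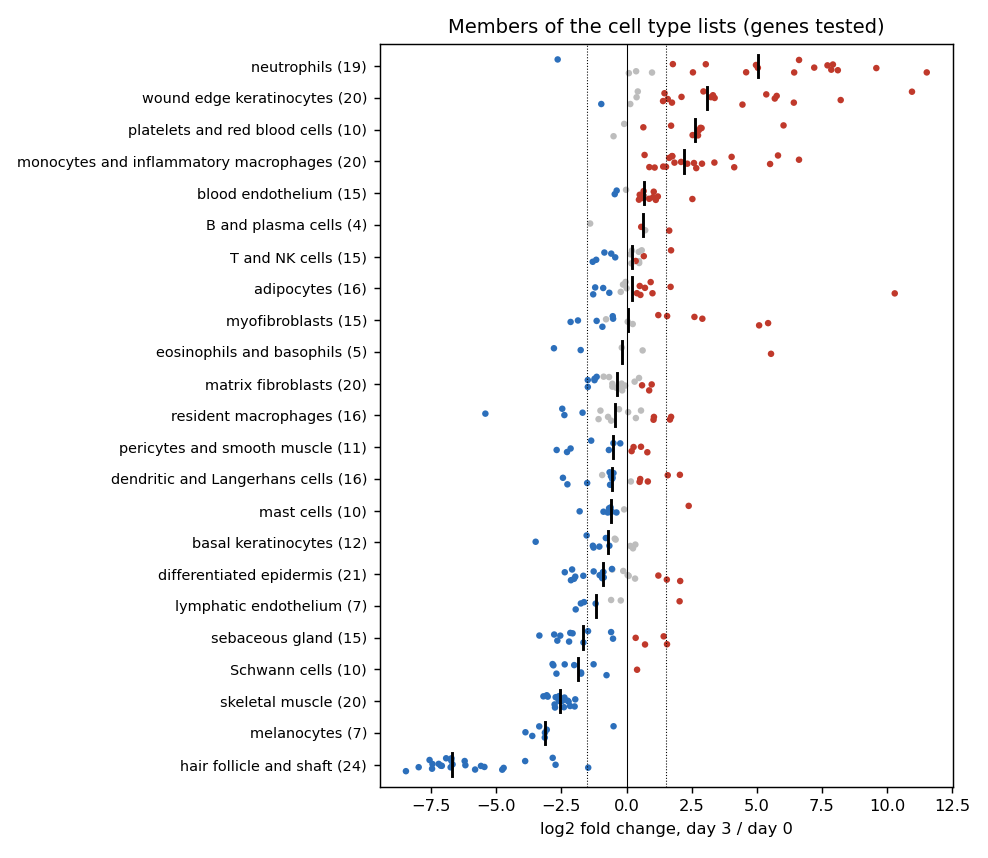
Log2 fold change of day 3 over day 0 (horizontal axis) for each gene tested in the lists of cell type markers, drawn as for the lists by function with the number tested in brackets. The median runs from -6.69 for hair to 5.04 for neutrophils, and most genes of dendritic, mast, Schwann, muscle and pigment cells are blue.

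All 20 markers of monocytes and inflammatory macrophages rose, 16 past the limit, with a median log2 fold change of 2.21. The median was 2.93 without day 0 replicates 1 and 4 and 1.81 without replicates 2 and 3, where 13 markers were past the limit. Chil3, a chitinase-like protein of monocytes and macrophages, was at 4.33, 0.0991, 0.456 and 1.39 CPM and then 72.4, 72.7, 69.2 and 71.4 CPM (45.5-fold, without overlap). Its log2 fold change of 5.51 was 6.83 without day 0 replicate 1 and 8.04 without replicates 1 and 4. Cd300lf, an inhibitory receptor of myeloid cells, rose by 5.81 on the log2 scale (6.43 without day 0 replicate 1). Ly6c2, which marks classical monocytes, was at 30.2 and 23.2 CPM in day 0 replicates 1 and 4, at 3.02 and 4.38 CPM in replicates 2 and 3, and at 50.1, 56.3, 55.3 and 55.8 CPM on day 3 (log2 fold change 1.84, adjusted p = 0.0293). The log2 fold change was 2.44 without day 0 replicate 1 and 3.91 without replicates 1 and 4. With 1 library left out, its adjusted p ran from 0.00974 to 0.0589, past 0.05 without any library of day 3. Ccr2 and Plac8 rose by 2.09 and 1.75.

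Of 16 markers of resident macrophages, 4 rose and 4 fell (25% and 25%), both shares below the 29.4% and 33.5% of all genes tested. Retnla, a product of alternatively activated macrophages, was at 166, 495, 495 and 221 CPM on day 0 and at 6.96, 10.1, 7.18 and 8.05 CPM on day 3, 42.6-fold lower without overlap (log2 fold change -5.41, or -4.57 without day 0 replicates 2 and 3). The lectin gene Mgl2 fell 5.52-fold (log2 fold change -2.46, or -1.46 without replicates 2 and 3). The mannose receptor gene Mrc1, Cbr2, Stab1 and Pf4 rose by 1.04, 1.05, 1.67 and 1.71 on the log2 scale, and Cd163, Lyve1 and Folr2 did not pass the test. Pf4 is also in the list of platelets and red blood cells. The mean log2 CPM of the list was 1.16 lower in day 0 replicates 1 and 4 than in replicates 2 and 3. Without replicates 1 and 4, 5 of the genes rose and 11 fell (9 fell without replicate 4 alone), and without replicates 2 and 3 instead, 7 rose and 4 fell. Folr2 was called lower in the former case (log2 fold change -0.28) and higher in the latter (0.57), Lyve1 lower in the former (-0.99) and Cd163 higher in both (0.14 and 1.22).

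Markers of dendritic and Langerhans cells fell in 9 of 16 cases and rose in 5, while 5 fell without day 3 replicate 4 or without day 0 replicates 2 and 3. Langerin (Cd207), which defines Langerhans cells, fell from 18.7, 23.3, 21.9 and 20.1 CPM to 5.51, 3.21, 4.69 and 4.04 CPM (4.81-fold lower), and Xcr1, which marks cross-presenting dendritic cells, by 2.44 on the log2 scale. Ccr7 and Fscn1, which dendritic cells switch on as they leave for lymph nodes, rose by 2.05 and 1.58. Fscn1 is also in the list of wound edge genes. Of 15 T and NK cell genes, 3 rose and 5 fell (20% and 33.3%, near or below the shares of all genes tested), and 5 rose without either pair of day 0 libraries. The list held the T cell receptor chains Cd3d, Cd3e and Cd3g, down by 0.58, 1.16 and 1.30, and the granule protease Gzmb, up by 1.71 (2.58 without day 0 replicates 1 and 4). The adjusted p of Cd3d ran from 0.0201 to 0.0624 with 1 library left out, past 0.05 without day 0 replicate 2 or 3 or day 3 replicate 2 or 4, and 3 genes of the list fell without day 3 replicate 2. Of 4 B cell genes tested, 2 rose and 0 fell, among them Cd79b with a rise of 0.56. None rose without day 3 replicate 2 by the same test, and the adjusted p of Cd79b ran from 0.0087 to 0.0578 with 1 library left out, past 0.05 also without day 0 replicate 2 and at 0.0583 with the replicate block.

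Mast cell markers fell in 8 of 10 cases, 1 past the limit, with the proteases Cpa3, Mcpt4 and Cma1 at -0.59, -0.88 and -0.67. Without day 0 replicates 2 and 3, 5 fell, and the adjusted p of Cpa3 ran from 0.00206 to 0.0508 with 1 library left out, past 0.05 without day 3 replicate 4. Fcer1a, which basophils share, rose by 2.39, and the basophil protease Mcpt8 had 1 to 3 counts per library on day 0 and was at 3.15, 2.80, 3.01 and 2.33 CPM on day 3. Of 5 eosinophil and basophil genes tested, Mcpt8 was the 1 that rose (3 rose without day 0 replicates 2 and 3), and 2 fell, Ear2 by 2.78 and, with overlap, Il5ra, whose adjusted p ran from 0.00609 to 0.0588 with 1 library left out (past 0.05 without day 0 replicate 3 or day 3 replicate 2 or 3). Genes of platelets and red blood cells rose in 8 of 10 cases. The hemoglobin genes Hba-a1, Hba-a2, Hbb-bs and Hbb-bt, copies that can share reads, rose 5.80-fold to 7.15-fold, and the platelet chemokine Ppbp by 6.02 on the log2 scale (6.71 without day 0 replicates 2 and 3).

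In the epidermis, 16 of 20 wound edge genes rose, 14 past the limit, and 1 fell. Past the limit were 16 without day 0 replicates 1 and 4 and 12 without replicates 2 and 3. Krt6b, a stress keratin, was at 23.2, 0.570, 0.887 and 7.35 CPM on day 0 and at 758, 656, 656 and 668 CPM on day 3 (log2 fold change 6.42, standard error 1.05), and its partner Krt16 was at 55.0, 10.2, 11.0 and 21.0 CPM and 628, 512, 495 and 488 CPM (21.8-fold higher). Both were highest on day 0 in replicates 1 and 4, and neither overlapped between the days. The log2 fold change of Krt6b was 7.90 without replicate 1 and 9.91 without replicates 1 and 4, and that of Krt16, 4.45 with all libraries, was 5.26 and 5.68. Of 12 basal markers, 0 rose and 7 fell, and without day 0 replicates 1 and 4, 3 rose and 6 fell. Krt15, a keratin of the follicle bulge and basal layer, was at 1078, 922, 936 and 1392 CPM and then 113, 99.1, 91.0 and 83.1 CPM, 11.2-fold lower without overlap. Krt14, the main basal keratin, was at 1416 ± 659 and 1791 ± 202 CPM and did not pass the test, but rose by 1.11 on the log2 scale without day 0 replicates 1 and 4.

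Of 21 genes of the differentiated epidermis, 13 fell and 3 rose (5 without day 0 replicates 2 and 3). Krt10, the keratin of the suprabasal layers, was at 1784, 1793, 2012 and 1829 CPM and then 529.7, 442, 399.7 and 375 CPM, 4.25-fold lower without overlap. The late envelope gene Lce1m and the keratin Krt77 fell by 2.37 and 2.13 on the log2 scale, and Krt1, the partner of Krt10, by 0.93. The crosslinking enzymes Tgm3 and Tgm1 rose by 2.06 and 1.22.

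All 24 hair genes tested fell, 23 past the limit, with a median log2 fold change of -6.69, or -5.70 without day 0 replicate 1. The hair cortex keratin Krt34 was at 74.8, 20.9, 13.6 and 4.70 CPM on day 0 and had 2 to 4 counts per library on day 3 (log2 fold change -8.46, standard error 1.13). The inner root sheath keratins Krt25 and Krt27 fell by 6.67 and 6.92. Without replicate 1 of day 0, Krt34, Krt25 and Krt27 were at -7.31, -5.75 and -6.17. Krt34 was highest in day 0 replicate 1 and lowest in replicate 4, and the mean log2 CPM of the list ranged from 3.51 to 6.07 among the libraries of day 0. All 7 pigment cell genes tested fell, 6 past the limit. Dct, an enzyme of melanin synthesis, fell 10.2-fold, and Tyrp1, another, was at 30.4, 6.84, 6.84 and 9.68 CPM and then 0.819, 1.09, 1.17 and 0.577 CPM, highest in day 0 replicate 1 (log2 fold change -3.88, or -3.07 without it). Of 15 sebaceous genes, 11 fell and 4 rose. Scd3, a desaturase of the gland, was 10.1-fold lower, while its relative Scd1, which fat cells share, rose from 4482 ± 635 to 7334 ± 454 CPM.

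All 20 genes of skeletal muscle fell past the limit, by 1.97 (Actn2) to 3.19 (Pvalb) on the log2 scale. Without day 0 replicates 1 and 4, 18 were past the limit and Actn2 was at -1.18. The median log2 fold change was then -2.07 in place of -2.56. Acta1, the actin of skeletal muscle, was at 7832, 5153, 5242 and 7987 CPM and then 1367, 1688, 1820.1 and 1729 CPM, 3.97-fold lower without overlap. Of 10 Schwann cell genes, 9 fell and 1 rose. The myelin gene Mbp was at 205, 221, 210.0 and 304 CPM and then 72.5, 68.8, 69.8 and 69.9 CPM, 3.35-fold lower without overlap. The numbers of hair, muscle and Schwann cell genes that fell, past the limit or not, were the same without day 0 replicates 1 and 4. Of the Schwann cell genes, 6 in place of 7 were past the limit without these.

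Matrix fibroblast genes were widely spread on day 0, and 3 of 20 rose and 5 fell (15% and 25%, both below the shares of all genes tested). Col1a1, the main collagen chain of the dermis, was at 7221, 16304, 15851 and 3938 CPM on day 0 and at 5154, 5141, 4671 and 4624 CPM on day 3. It was called lower (log2 fold change -1.14, adjusted p = 0.0298, or -0.18 on the log2 scale without day 0 replicates 2 and 3) although day 0 replicate 4 lay below every library of day 3. With 1 library left out, its adjusted p ran from 0.0012 to 0.0801, past 0.05 without any library but day 0 replicate 1 or 4, and it was 0.0671 with the replicate block. Without day 0 replicates 1 and 4, 3 genes of the list rose and 15 fell (13 fell without replicate 4 alone), and without replicates 2 and 3 instead, 7 rose and 3 fell. Pdgfra, the receptor that marks fibroblasts, rose by 0.97 on the log2 scale. Of 15 myofibroblast genes, 6 rose and 6 fell (40% and 40%, beside 29.4% and 33.5% of all genes tested). The contractile genes Acta2, Tagln, Cnn1 and Myl9, which smooth muscle shares, fell by 0.92, 1.15, 2.14 and 1.86, and the matrix gene Col12a1 rose by 2.61. Among 11 genes of pericytes and smooth muscle, 4 rose and 7 fell, with Lmod1 and Myh11 of smooth muscle down by 2.68 and 2.28.

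Of 15 genes of the blood endothelium, 11 rose, 1 past the limit, and 2 fell. Apln, a peptide of sprouting tip cells, rose 5.76-fold (log2 fold change 2.53, or 3.26 without day 0 replicates 1 and 4), Cdh5, the cadherin of endothelial junctions, 2.30-fold and Pecam1 by 0.68 on the log2 scale. Of 7 lymphatic genes, 4 fell and 1 rose. Prox1, the defining transcription factor, and Reln fell by 1.75 and 1.95, and Pdpn, which fibroblasts and keratinocytes also express, rose by 2.04. Of 16 fat cell genes, 8 rose and 4 fell (7 without day 0 replicates 1 and 4). Ucp1 was at 0.151, 0.371, 1.24 and 0.989 CPM on day 0 and at 692, 897, 929 and 919 CPM on day 3 (log2 fold change 10.29, standard error 0.47). Lep, the hormone of white fat, fell by 1.28, and Adipoq was at 559 ± 58.5 and 479.7 ± 31.8 CPM and did not pass the test (adjusted p = 0.0556, or 0.00134 without day 0 replicates 1 and 4, and under 0.05 without replicate 1 alone).

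**Figure D5:**
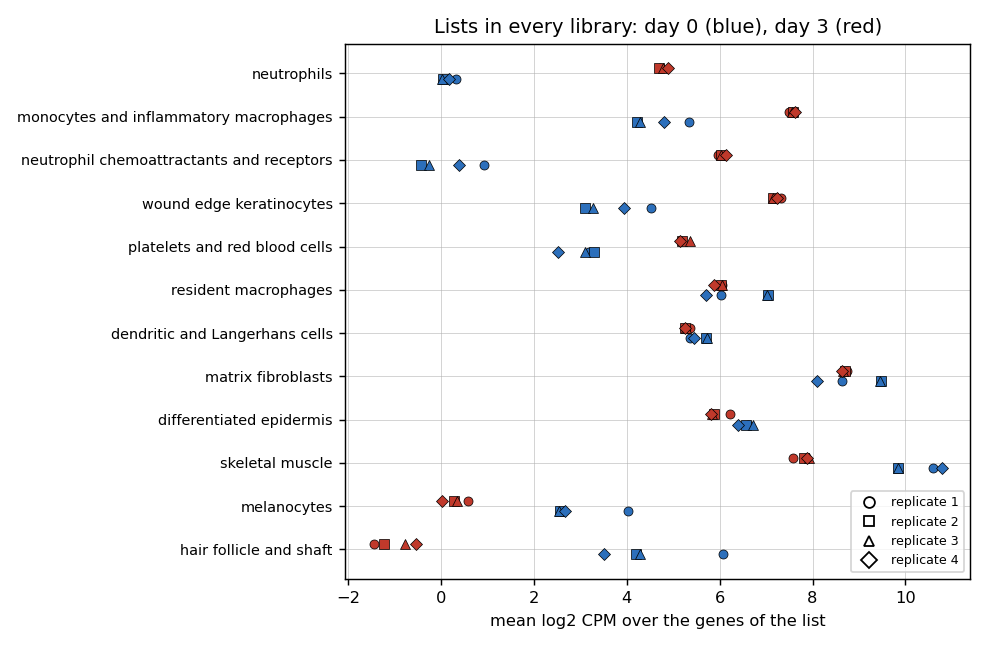
Mean log2 CPM over the tested genes of 12 lists (horizontal axis) in each of the 8 libraries, with day 0 in blue, day 3 in red and 1 marker shape for each replicate number. Neutrophil, monocyte and wound edge lists lie higher and hair, pigment and muscle lists lower in every library of day 3, while the libraries of day 3 lie within the range of day 0 for resident macrophages and matrix fibroblasts.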

How the data were processed

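Wound site RNA was taken up in TRIzol and sequenced after library preparation with a VAHTS kit. The authors deposited raw read counts per gene and FPKM values that follow from them, and the submitters' processing notes name fastp and mm10. The aligner, counter, annotation and strand setting are not given in the sources used here, so reads of overlapping and antisense genes cannot be told apart. The study's methods name DESeq2.

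Here, 16603 of 29068 genes passed edgeR's filter on low counts. Counts of the 8 libraries were scaled by TMM, fitted and tested with edgeR 4.0.16 in R 4.3.3 (quasi-likelihood, Benjamini-Hochberg over all genes tested), and the same steps were tested on simulated data with known changes. The simulation gave both days the same spread and changed only genes with more than a few counts. It does not cover the wider spread of day 0 or genes with few counts. CPM values use the TMM-scaled totals, and FPKM values are the deposited ones. For single genes, libraries were permuted exactly (two-sided), where the smallest p with 4 against 4 is 0.0286. This is the p of every gene whose days did not overlap.

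The comparison, the gene lists and the rules were chosen with earlier results of these data known. Named genes are, per list, up to 4 largest rises and 3 largest falls (without overlap, at least 1 CPM) and its first 3 genes, the 15 largest changes each way over all genes (at least 10 CPM), and transcripts that the study measured elsewhere. Casp1, Ddx3y, Elane, Hp, Il11, Il1f9, Il33, Il5ra, Lcn2, Lif, Mpo, Myh4, Prtn3, Pycard, Retnlg, Tslp and the further lists of the closing section were chosen after their values were seen. A few genes that the rule names are not reported here, but the counts over all genes and lists include them. Interleukin 36 genes were matched by their older symbols.

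Replicate numbers gave no pairing, since deviations of same-numbered libraries from their group means correlated by -0.0297 to 0.0169. Alternatives were other scalings and filters, DESeq2 1.42.0, limma 3.58.1 on counts (voom) or on log2(FPKM + 1) or log2(FPKM + 0.1), all 28 libraries, a replicate block, Xist as a covariate, and fewer libraries. Leaving out pairs of day 0 libraries was chosen after seeing the data.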

Additional observations from a re-analysis of the deposited data

Results flagged for a closer look

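In 27 of 538 groups of 4 libraries, each a gene of the text or a list on 1 day, the highest or the lowest library lay apart from the other 3 by more than Dixon's limit for the gap to the nearest library divided by the whole range. Chance gives about 5% of groups, so 27 is near the number that chance gives. The values below are this ratio on the log2 CPM scale. It measures the gap against the range of the 4 libraries and not its size, so it is high also where the libraries nearly coincide. The prostaglandin and leukotriene list had a mean log2 CPM of 4.179 in day 3 replicate 3 and 4.197 in the others, and the adhesion list 6.464 in day 3 replicate 1 and 6.498 to 6.502 in the others. For Sprr2b on day 0 the gap was 1 count against 0, and for Krt26 on day 3 it was 2 counts against 1.

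On day 0, 1 library lay apart above the other 3 for Fgf23 (replicate 1, 0.843), Lce1m (replicate 3, 0.872), Saa2 (replicate 1, 0.859), Sprr2b (replicate 4, 1.0) and Tnf (replicate 4, 0.91). On day 0, 1 library lay apart below the other 3 for Hbb-bs (replicate 4, 0.902) and Tgm1 (replicate 4, 0.834). On day 3, 1 library lay apart above the other 3 for Areg (replicate 4, 0.87), Il1r2 (replicate 4, 0.835), Krt26 (replicate 2, 0.973), Krt6b (replicate 1, 0.876), Pdpn (replicate 1, 0.934), Per3 (replicate 2, 0.853) and S100a9 (replicate 4, 0.834). On day 3, 1 library lay apart below the other 3 for C1qc (replicate 4, 0.89), Ly6c2 (replicate 1, 0.841), Olr1 (replicate 2, 0.864), Scd1 (replicate 1, 0.844), Tagln (replicate 2, 0.839) and Ucp1 (replicate 1, 0.881). On day 0, 1 library lay apart above the other 3 for the list of antimicrobial and acute phase (replicate 1, 0.858), the list of arginine, phagocytosis and lipid clearance (replicate 1, 0.946) and the list of melanocytes (replicate 1, 0.904). On day 0, 1 library lay apart below the other 3 for the list of cell death (replicate 4, 0.83). On day 3, 1 library lay apart below the other 3 for the list of adhesion and leukocyte traffic (replicate 1, 0.895), the list of prostaglandin and leukotriene (replicate 3, 1.0) and the list of resident macrophages (replicate 4, 0.857). Of the genes named here, Il1r2 did not pass the test between the days and all others did, and none of these distances was explored further.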

How the results depend on the processing

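The counts over all genes (4877 higher, 5562 lower, and 990 and 1815 past the fold limit) stayed within 1.5 times their values under the other scalings, no filter, DESeq2, limma-voom with quality weights, limma on log2(FPKM + 0.1), all 28 libraries, Xist as a covariate and each library left out. Xist had at most 4 counts in every library, so as a covariate it could hardly change these counts. Past the fold limit, 625 genes were higher and 1171 lower with at least 10 counts in every library, 489 and 577 with limma on log2(FPKM + 1), 488 and 589 with that and a mean FPKM of at least 1, and 1633 were higher with a log2 limit of 1. The FPKM + 1 scale understates changes of low genes, and the stricter filter tests fewer genes. With 1 library left out, 4390 to 5140 rose, 4957 to 5445 fell, 983 to 1128 were higher and 1777 to 1968 lower past the limit. With the replicate block, 4640 rose, 5146 fell, and 1026 and 1753 were past the limit. The numbers share no animal in the labels, and the best day 3 partner was never the library of the same number. Without day 0 replicates 2 and 3, 5385 rose and 5449 fell.

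Of 206 named genes that passed the test, 10 lost the call in at least 1 setting (Cd3d, Cd79b, Col1a1, Cpa3, Dbp, Il5ra, Ly6c2, Myh3, Per3 and Tslp), 5 of them with the replicate block. The direction of a called value turned only with pairs of day 0 libraries left out. Without replicates 1 and 4 this was so for Dbp (0.25), Folr2 (-0.28) and Myog (1.72) on the log2 scale, and without replicates 2 and 3 for Fn1 (0.72) and Gapdh (-0.16). Of 94 counts over the lists and directions, 28 moved by more than 1.5 times and by more than 1 gene in at least 1 setting. With at least 10 counts in every library, where fewer genes are tested, the genes that rose were 13 in place of 20 for cytokines, 7 in place of 12 for neutrophil chemoattraction, 14 in place of 23 for antimicrobial genes, 7 in place of 15 for neutrophil markers and 3 in place of 6 for plasma proteins, and hair genes that fell were 11 in place of 24. Most of the other changes were with pairs of day 0 libraries left out. Where not shown by the setting itself, the causes were not tested. Depth limits the genes with few counts on 1 day, which that filter removes.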

Other observations

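Further lists were drawn up after the values had been seen, so they describe these libraries and get no more weight than that. Of 7 genes of plasma proteins tested, 6 rose and 1 fell. Itih4, which liver secretes in the acute phase, was at 0.755, 0.396, 0.507 and 2.73 CPM on day 0 and at 651, 786, 827 and 880.4 CPM on day 3, without overlap (log2 fold change 9.50, or 10.49 without day 0 replicate 4). The serum amyloids Saa1 and Saa2, near-identical copies whose reads can be shared, rose by 7.83 and 7.22 on the log2 scale and hemopexin (Hpx) by 7.24, while albumin (Alb) fell by 1.17. Saa1 was at 9.03 without day 0 replicate 1, which held nearly all counts of Saa2 on day 0. The fibrinogen genes and Apoa1 and Ttr, also plasma proteins of the liver, had too few counts for the test. Of 10 genes of thermogenic fat, 6 rose and 3 fell. Beside Ucp1, the thyroid hormone deiodinase Dio2 rose by 3.80, the lipid droplet gene Cidea by 1.55 and the cytochrome oxidase gene Cox8b by 1.29, while the regulator Ppargc1a did not pass the test with all libraries but did without day 0 replicates 1 and 4 (log2 fold change 0.35) and Zic1, a marker of classical brown fat, fell by 0.86.

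Genes of the circadian clock fell in 10 of 16 cases and rose in 1 (4 without either pair of day 0 libraries). Per3 was at 36.8, 10.4, 9.35 and 60.0 CPM on day 0 and at 6.04, 7.82, 6.28 and 6.24 CPM on day 3 (log2 fold change -2.14, or -1.5 without day 0 replicate 4 and -0.55 without replicates 1 and 4, with the call lost by limma on log2(FPKM + 1) at an adjusted p of 0.0784), and Dbp, a clock output gene, at 111, 18.3, 16.7 and 164 CPM and 19.1, 19.4, 21.6 and 21.3 CPM. Dbp was called lower (-1.93 on the log2 scale, or -1.25 without day 0 replicate 4) but higher without day 0 replicates 1 and 4 (0.25), and with 1 library left out its adjusted p ran from 0.00891 to 0.106, past 0.05 without day 0 replicate 1 or 4 or any library of day 3. The mean log2 CPM of the list was 0.95 higher in day 0 replicates 1 and 4 than in replicates 2 and 3, and the hour of collection is not given in the sources used here. Genes of muscle regeneration showed the same split more widely. Myh3, the embryonic myosin of regenerating fibres, was at 22.6, 0.248, 0.431 and 8.26 CPM on day 0 and at 0.358, 0.233, 0.363 and 0.105 CPM on day 3, and Myog, a regulator of myoblast fusion, at 26.6, 1.16, 0.507 and 14.0 CPM and 2.84, 2.49, 2.20 and 3.25 CPM. Their log2 fold changes of -4.88 and -1.97 were -3.46 and -0.94 without day 0 replicate 1. Of 8 such genes, 0 rose and 4 fell, but without day 0 replicates 1 and 4, 4 rose and 3 fell, Myog rose by 1.72 and Myh3 no longer passed the test (adjusted p = 0.634). Of 12 heat shock genes, 5 rose and 5 fell. What these patterns come from was not tested.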
